A study of Mus musculus with 12 samples.

Results

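The genes described here are the numbered Zfp genes of mouse chromosome 7, whose names are Zfp followed by a number and at most one letter from a to d, and whose insertions in unsorted cells lay most often on that chromosome. Zfp574 and Zfp36 were left out by name, and the study reports Zfp574 as a transcriptional activator. The rule found 89 of the 390 numbered Zfp genes among the 20409 genes of the deposited tables. Apart from leaving out those named genes, it used names and positions in unsorted cells, and no sorted value. All 89 names were found on chromosome 7 in GENCODE vM21 (build GRCm38, the same as mm10), in 17 runs separated by more than 1 Mb. The largest runs held 15 genes (Zfp84 to Zfp146, chr7:29768552-30169750) and 13 genes (Zfp180 to Zfp526, chr7:24081924-25227507).

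Zinc fingers of the C2H2 type are short folds held by zinc that read DNA bases, and many genes of this kind arose by local duplication, so neighbours on a chromosome are often related. A large share of them also encode a KRAB domain near the N terminus, which binds the corepressor Trim28. Trim28 in turn brings the histone methyltransferase Setdb1 and HP1 proteins (Cbx1, Cbx3 and Cbx5), and silences the DNA to which the zinc fingers are bound. The screens asked which proteins act on a reporter once a tag has brought them to it.

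The libraries came from mouse embryonic stem cells of the line AN3-12, haploid in origin and used as diploid cells, each screen in its own GFP reporter line. All cells, unsorted ones included, carried an ORFtag cassette: a retroviral insert with a PGK promoter, a neomycin resistance gene, a tag and a splice donor, which makes a fusion of the tag with the exons that follow the insertion. TetR, which binds TetO sites at the reporter, was the tag for activators, sorted as cells with GFP, and for repressors, sorted as cells without GFP. The third screen, PTGR, looked for regulators acting after transcription, with the lambdaN peptide as the tag, which binds boxB sites in the reporter RNA. Its cells were sorted repeatedly for low GFP and then, once Cre had removed the boxB sites, for GFP again. Each screen had 2 sorted and 2 unsorted libraries, hence 12 in 6 groups. The activator and PTGR lines were clonal, and cassettes for all reading frames were mixed, so the frame of a single insertion is not known. An insertion library holds no expression values, so the cell type could not be checked against markers.

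A count is the number of different insertion positions in a library whose nearest downstream splice acceptor, at most 200 kb away, belonged to the gene in the sense direction. Sorted libraries held 14705 to 60980 such insertions over all genes, and unsorted libraries 54088 to 233799. The 6 unsorted libraries together served as the background, common to all 3 screens. A gene was called in a screen when its share of sorted insertions exceeded its share of background insertions with a log2 odds ratio of 1 or more and an adjusted p below 0.001 (one-sided Fisher's exact test over all genes with at least 3 sorted insertions). The study describes its replicates as biological and its transductions as independent, which the labels do not state. The repressor sorted libraries had 4892 positions in common, 18.2% of replicate 1 and 26% of replicate 2. The activator sorted replicates had 1.76 and 2.26% in common and the PTGR sorted replicates 0.546 and 0.591%, so the repressor replicates stood apart in this. The p-values of edgeR measure the spread between these samples, and the effect of the common positions on that spread was not tested. At the members they had 72 positions in common, 19.1% and 27.9%. Whether these were the same cells was not tested. Fisher's exact test used counts summed over the replicates, so a common position entered it once for each library. Its p-values and the SE treat all insertions as independent.

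The acceptors that received the tag at the members carry much of what follows, so a few are shown here, each as the last 20 bases of the intron and the first 10 bases of the exon. They read 5′ to 3′ on the gene's strand of GRCm38, with the AG of the acceptor in capitals. The first 4 lines are pairs within a gene, the acceptor used most in the background and the acceptor of the exon that encodes the KRAB letters.
Zfp74 exon 2, chr7:29943536-29943565, minus strand: acttctgttctttttgccAGttcagcttgc
Zfp74 exon 3, KRAB exon, chr7:29938059-29938088, minus strand: agtgatgcgtattgttacAGggactagtga
Zfp568 exon 2, chr7:29985240-29985269, plus strand: cctttgtctttatgtttcAGgtttctcatg
Zfp568 exon 5, KRAB exon, chr7:29997730-29997759, plus strand: ttttttttttatatgtatAGaaaacagtga
Zfp607b exon 4, KRAB exon, chr7:27693462-27693491, plus strand: ccttgtgtttgctctttcAGgggtcagtga
Zfp975 exon 2, KRAB exon, chr7:42665135-42665164, minus strand: acacatgtatgggattttAGgatgcattga
Zfp936 exon 2, KRAB exon, chr7:43187150-43187179, plus strand: acatatgtatgggattttAGgatgcattga
Zfp383 exon 2, chr7:29910163-29910192, plus strand: tgactcattttttcccccAGctccactcct
Zfp566 exon 2, chr7:30087150-30087179, minus strand: ctgttctttgtctcccccAGttctcccccg
The 30 bases shown for Zfp607b were identical at 5 members, Zfp59, Zfp60, Zfp607a, Zfp607b and Zfp626, which lie in the same run of genes. The authors discarded poorly mapped reads. Whether reads were lost at these genes, or split between them, was not tested, so the counts of these genes are uncertain.

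In the repressor screen the members took up a larger part of the sorted libraries than of the unsorted ones. The 89 genes received 376 and 258 insertions in the repressor sorted libraries, which is 1.69% (95% Wilson interval 1.53 to 1.87%) and 1.7% (1.5 to 1.91%) of those libraries, or 169 and 170 per 10000. The same genes held 45.7 to 52.4 per 10000 in the 6 unsorted libraries, 28.6 and 41.4 in the activator sorted libraries, and 45.4 and 47.3 in the PTGR sorted libraries. Both repressor sorted libraries thus lay above the other 10. Of 2 sorted against 6 unsorted libraries, the exact permutation test cannot give a two-sided p below 0.0714. Wilson intervals cover counting error only.

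The excess lay with the genes whose translated coding sequence held KRAB-type letters before the first zinc finger. There were 59 such genes and 30 without, by a pattern widened after the sequences were seen. The narrower pattern, set first, found 41. The 59 took 161 and 157 per 10000 in the repressor sorted libraries, against 21.4 to 29.4 in the unsorted ones. The 30 without the letters took 7.63 and 12.5 per 10000, where the unsorted libraries held 22.9 to 24.3. Shares of a library depend on its other genes, and 54.8% of repressor sorted insertions were at genes called in that screen. Among the insertions outside those called genes, the 30 took 16.9 and 27.5 per 10000, which overlaps the 23.7 to 24.9 of the unsorted libraries. On the same base the 47 uncalled members with KRAB letters took 46.8 and 40.6 per 10000, above the 13.8 to 17 of the unsorted libraries. In the set without KRAB letters no member was called, and 3 of 30 had at least 3 sorted insertions. This rests on the widened pattern, since Zfp108, Zfp93 and Zfp607b were called and lacked the narrower one.

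**Figure D1:**
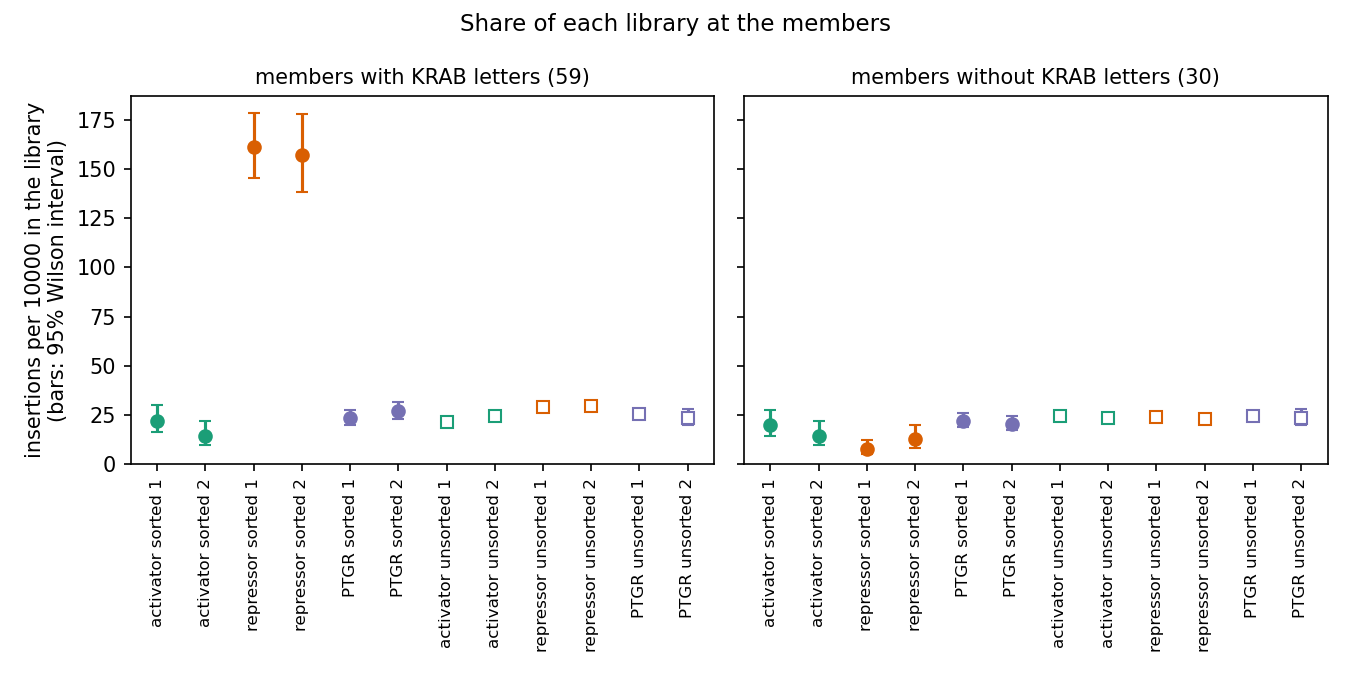
Insertions per 10000 in each of the 12 libraries at the 59 members with KRAB letters (left) and the 30 without (right); filled circles are sorted and open squares unsorted libraries, and bars are 95% Wilson intervals. The repressor sorted libraries stand at 161 and 157 on the left and at 7.63 and 12.5 on the right.

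Of the 89 members, 27 had at least 3 sorted insertions in the repressor screen and 12 of them were called, where 8.18% of the 2346 genes tested in that screen were called. Of all members this is 13.5%, and of all 20409 genes 0.941% were called. Since a gene with few insertions in unsorted cells reached 3 sorted insertions only by being high, the 27 are not a sample of the 89. Over the 27 the median log2 odds ratio was 2.88, and over all genes tested -0.39. All 12 had the KRAB letters by the widened pattern, and 9 by the narrower one set first. Both sorted libraries lay above all 6 unsorted libraries at each of the 12, as at 97.9% of the 192 genes called and 16.6% of the genes tested. The call itself favours this. edgeR, which uses the spread between replicates and compared the 2 sorted with the 2 unsorted libraries of that screen, called 13 of 51 members tested, against 2.58% of 7688 genes. The 13 were the same 12 and Zfp60. A fit blocked on replicate number called the 12 (2.32% of genes).

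The members with most insertions were Zfp383 and Zfp566, less than 0.2 Mb apart in the run of 15 genes. Zfp383, which encodes 11 zinc fingers, had 72 and 58 insertions in the repressor sorted libraries, 32.3 and 38.1 per 10000, while the unsorted libraries held 0.555 to 2.52 per 10000. Its log2 odds ratio was 4.66 ± 0.18 (SE; adjusted p = 9.16e-110, Fisher's exact test). Zfp566, with 7 zinc fingers, had 78 and 50 insertions, 35 and 32.9 per 10000, against 0.674 to 0.746 in the unsorted libraries. Its log2 odds ratio was 5.58 ± 0.21 (adjusted p = 6.45e-130, Fisher's exact test). At both genes the 2 repressor sorted libraries lay far above the 6 unsorted ones and close to each other.

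The same run of genes held 2 further called members, Zfp568 and Zfp74. Zfp568, a KRAB zinc finger gene known for its need in mouse gastrulation and placenta, had 28 and 23 sorted insertions and 172 background ones, a log2 odds ratio of 3.02 ± 0.23. Zfp74 had 32 and 11 against 273, a log2 odds ratio of 2.10 ± 0.24, and was unequal between replicates, at 14.4 and 7.23 per 10000. Without repressor sorted replicate 1 its log2 odds ratio was 1.44 and it was no longer called (adjusted p = 0.0158, Fisher's exact test).

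In the run from Zfp180 to Zfp526, Zfp108 and Zfp93 were called. Zfp108 had 27 and 16 sorted insertions, with 66 in unsorted cells (log2 odds ratio 4.15 ± 0.28). Zfp93 had 7 and 7, with 40 in unsorted cells (3.26 ± 0.45). Their neighbour Zfp109, which also has KRAB letters, had 3 and 1 against 124, a log2 odds ratio of -0.18 ± 0.73, and was not called. No test of the difference between neighbours was made.

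The other 6 called members lay apart. Zfp607b had 19 and 17 sorted insertions, with 70 in unsorted cells (log2 odds ratio 3.81 ± 0.30), and Zfp667 had 7 and 9 against 37 (3.56 ± 0.43). Zfp128 had 7 and 7 against only 6 in the background, 5.99 ± 0.70, with 0 insertions in both activator unsorted libraries and in 1 PTGR unsorted library. Its wide error goes with those few background insertions, of which the repressor unsorted libraries held 2 and 3. Against those libraries alone edgeR gave Zfp128 a log2 fold change of 4.90. Together the 12 called members held 12.4 and 13.1 per 10000 in the repressor unsorted libraries and 7.53 to 9.98 in the other unsorted ones. The common background is thus lower at these genes than the screen's own.

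Zfp975 and Zfp936 lie in the run from Zfp788 to Zfp819, and all their insertions in the background and in repressor sorted cells were at the KRAB exon 2 shown above. Zfp975 had 16 and 7 sorted insertions against 81, a log2 odds ratio of 2.95 ± 0.34. Zfp936 had 9 and 5 against 62, 2.62 ± 0.43. Zfp941, at the far end of the chromosome, had 10 and 1 against 34, 3.14 ± 0.50, so that replicate 2 alone did not reach the minimum of 3. It was the 1 called member with a log2 odds ratio below 1 in a single replicate. Without repressor sorted replicate 1, Zfp74, Zfp975, Zfp936 and Zfp941 lost their calls and Zfp60 gained one, which left 9 members called. Without repressor sorted replicate 2 Zfp114 was added, and without activator unsorted replicate 2 Zfp60. Within 50 kb of the exon, Zfp936 was not called either (log2 odds ratio 1.79). In edgeR with TMM and no block, each of the 12 kept an adjusted p of 0.000816 or lower. The highest among the 12 was 0.00386 in edgeR without TMM and 0.0128 in edgeR with the replicate block.

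**Figure D2:**
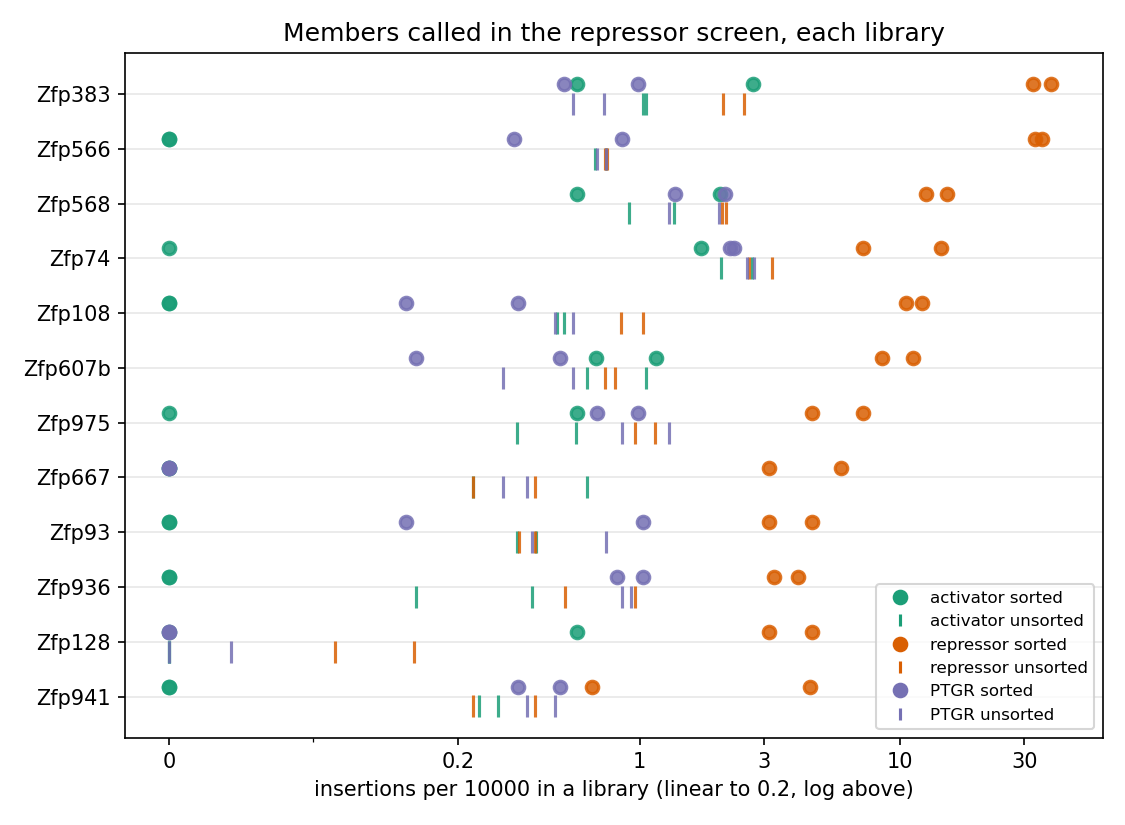
Insertions per 10000 in each of the 12 libraries at the 12 members called in the repressor screen; circles are sorted and vertical ticks unsorted libraries, coloured by screen, on an axis linear to 0.2 and logarithmic above, where circles at 0 can overlap. The repressor sorted circles lie to the right of every unsorted tick in all rows, by the least in replicate 2 of Zfp941.

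Just outside the threshold lay Zfp60, with 1 and 6 sorted insertions against 26 and a log2 odds ratio of 2.88 ± 0.61 (adjusted p = 0.00156, Fisher's exact test). Zfp114 followed with 5 and 0 against 13 (adjusted p = 0.00368, Fisher's exact test), then Zfp619 with 6 and 1 against 41 and Zfp59 with 4 and 2 against 30. All of these have KRAB letters. The 47 members with KRAB letters that were not called had a median of 12 background insertions, and the 12 called members a median of 68. Among the 47, 24 had no sorted insertion, which allows up to 0.801 per 10000 over both libraries.

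Several uncalled members were well covered. Zfp710, Zfp553 and Zfp787, which lack KRAB letters, were among the 5 members with most background insertions, at 284, 243 and 219. They had 2, 1 and 6 repressor sorted insertions, log2 odds ratios of -2.38 ± 1.02, -3.16 ± 1.45 and -0.42 ± 0.60, on a scale where the median of all genes tested was below 0. Zfp715, which has KRAB letters, had 2 and 2 sorted insertions against 202, a log2 odds ratio of -0.89 ± 0.73. Zfp689, also with KRAB letters and chosen after its values were seen, had 0 sorted insertions against 179, and its KRAB letters lie in exon 1, so that no acceptor lies before them.

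**Figure D3:**
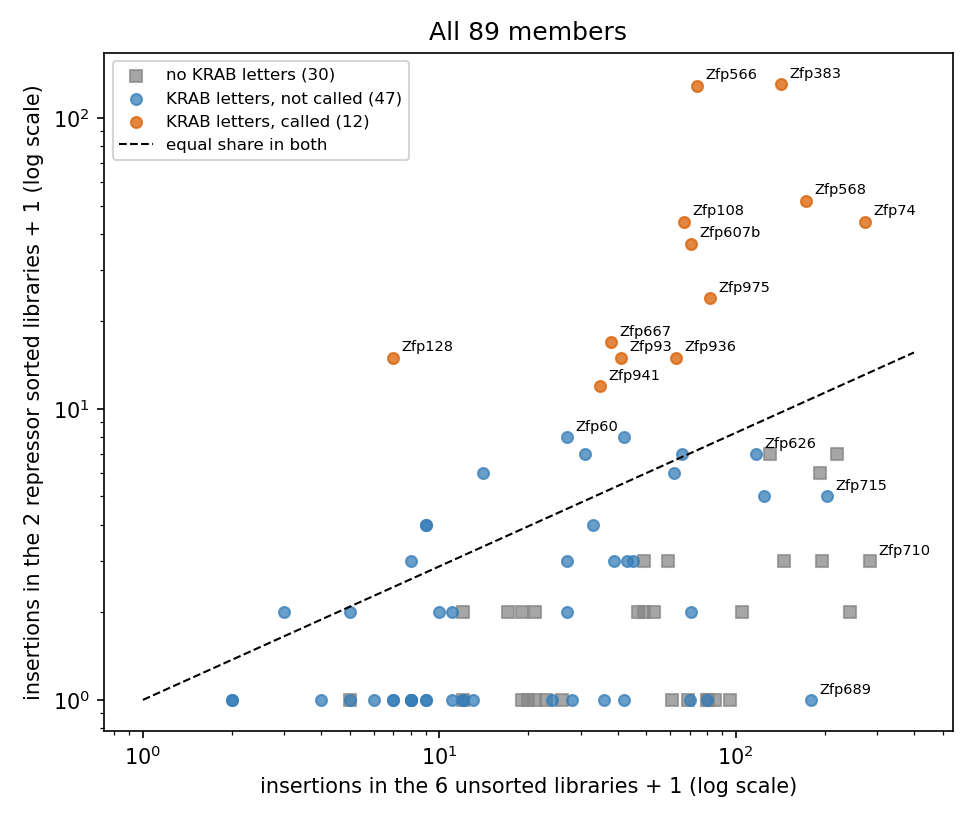
Each of the 89 members by its insertions in the 6 unsorted libraries (horizontal) and in the 2 repressor sorted libraries (vertical), both plus 1 on log scales; the dashed line is an equal share in both. The 12 called members, all with KRAB letters by the widened pattern, lie above the line, and Zfp710 with 284 background insertions lies below it.

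Pooled over the members, insertions were spread otherwise over the acceptors in the repressor sorted libraries. Such pooled shares depend on which genes were hit as well as on which acceptor was used. At the 59 members with KRAB letters, the acceptor lay at or before the KRAB exon in 357 of 359 insertions in replicate 1 (99.4%, 95% Wilson interval 98 to 99.8%) and in 236 of 239 in replicate 2 (98.7%, 96.4 to 99.6%). In the unsorted libraries this share was 86.9 to 91.3%, and in the activator and PTGR sorted libraries 81 to 94.3%. The smallest two-sided p of the exact permutation test, 0.0714, was reached. Zfp689 alone gave 178 of the background insertions beyond the KRAB letters, at its exon 2, and 0 repressor sorted ones. In repressor unsorted replicate 1, 443 of 500 insertions lay at or before the KRAB exon, and Zfp689 exon 2 held 31 of the others. In replicate 2 these were 453 of 521 and 39. Much of the gap thus lay at this gene, and the share without it was not taken. At the 12 called members alone the share was 99.4 and 99.1% against 91.1 to 97% in unsorted libraries, so the gap was smaller there. In the activator and PTGR sorted libraries it was 77.8 to 100% at those 12, which overlaps the repressor sorted ones.

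The reading frame showed a wider gap. For each acceptor that precedes the start codon, the bases up to the start codon were read in its frame, and a stop codon there would end a fusion before the gene's own protein. Such acceptors took 22 of 376 member insertions in repressor sorted replicate 1 (5.85%) and 28 of 258 in replicate 2 (10.9%). They took 31.5 to 37.9% in the 6 unsorted libraries and 29.2 to 45.2% in the activator and PTGR sorted libraries. At the 12 called members alone the shares were 4.17 and 8.06%, against 31.9 to 49.5% in unsorted libraries. Among the 12, such background insertions lay only at Zfp74 (241), Zfp568 (139), Zfp607b (20 at exon 2, 9 at exon 3) and Zfp667 (20). Zfp383 and Zfp566, with most sorted insertions, had none, so the pooled share also depends on which genes were hit. In repressor sorted replicate 1, such acceptors took 7 of 47 insertions at the 47 uncalled members with KRAB letters (14.9%). In replicate 2 they took 2 of 28 (7.14%), and in the unsorted libraries 25.5 to 37%. Both shares lay below all 6 unsorted ones (exact permutation p = 0.0714, two-sided). Their Wilson intervals were 7.41 to 27.7% and 1.98 to 22.6%, so the first reached into the unsorted range. Zfp60, Zfp619, Zfp59 and Zfp114, just short of a call, gave 7, 7, 6 and 5 of the repressor sorted insertions at these members. The set thus still held genes high in sorted cells.

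**Figure D4:**
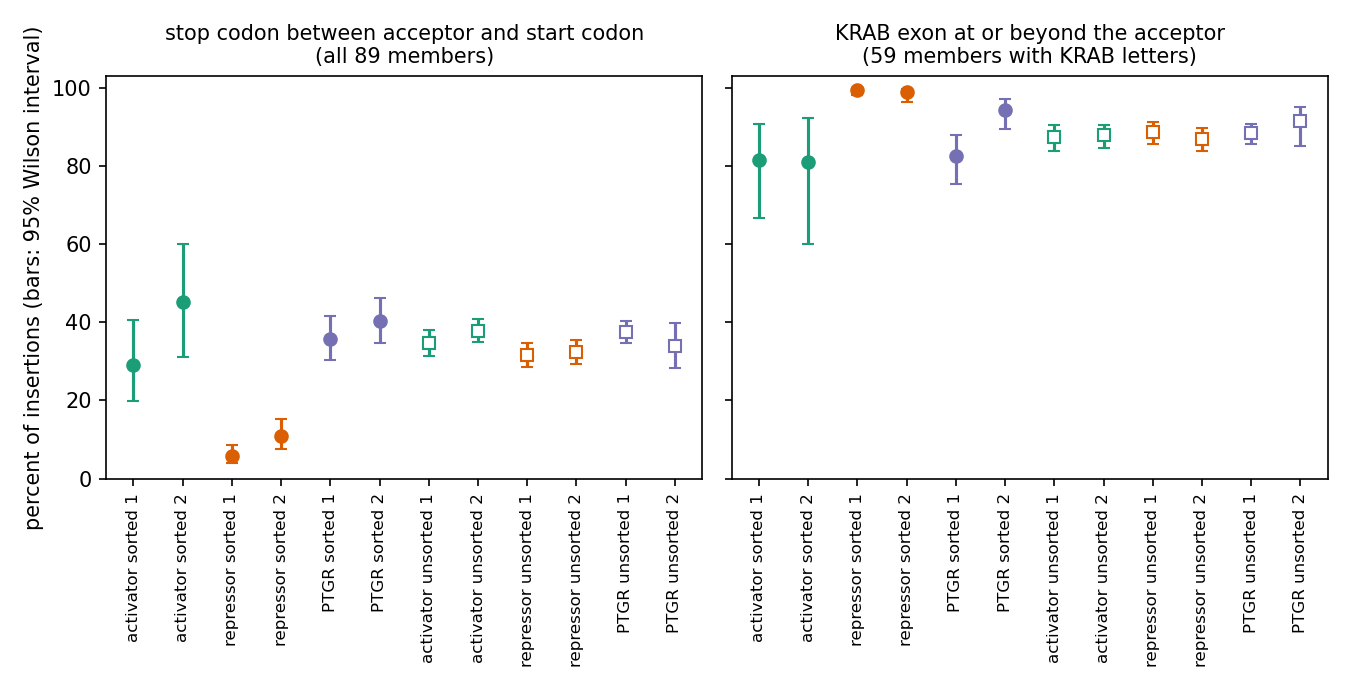
Percent of member insertions in each library whose acceptor is followed by a stop codon before the start codon (left, 89 members) and whose acceptor lies at or before the KRAB exon (right, 59 members); filled circles are sorted and open squares unsorted libraries, with 95% Wilson intervals. The repressor sorted libraries stand at 5.85 and 10.9% on the left and at 99.4 and 98.7% on the right.

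Over all members, insertions also lay closer to the acceptor. The median distance at the members was 3598 and 3284 bp in the repressor sorted libraries and 17646 to 22065 bp in the unsorted ones. At the 12 called members alone it was 3529 and 3215 bp against 4392 to 16502 bp in unsorted libraries, a much smaller gap to the nearest library, and activator sorted replicate 2 had 3324 bp. Insertions upstream of the whole gene made up 58 and 59.3% in repressor sorted cells and 76.4 to 82.4% in unsorted cells. At the 12 called members alone the upstream share was 59 and 60.2% against 57.4 to 71.2%, so the groups overlapped there.

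Within single genes, the acceptor used most in the background was compared with all others in a two-sided Fisher's exact test. It was adjusted over the 876 genes with at least 2 acceptors and at least 5 insertions in each set. Acceptor use differed at 6 of the 14 members tested, where 6.96% of all genes tested differed. The minimum of 5 sorted insertions favours genes high in sorted cells, so the 14 are not a sample of the members. The share among called genes alone was not taken. Zfp975, Zfp936 and Zfp941, with all these insertions at the KRAB exon, were not tested. At Zfp568, exon 2 at chr7:29985240-29985269, followed by a stop codon, took 139 of 172 background insertions (80.8%) and 3 of 51 sorted ones (5.88%; adjusted p = 4.93e-21, Fisher's exact test). Sorted insertions went instead to the KRAB exon 5, with 21 against 14 in the background, and to a second exon 2 acceptor with an open frame, with 20 against 16. At Zfp74, exon 2 with a stop codon took 88.3% of background and 20.9% of sorted insertions (adjusted p = 2.27e-17, Fisher's exact test), and the KRAB exon 3 took 34 of 43 sorted against 30 of 273 background insertions.

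The same direction held at smaller counts in the run of genes with the shared acceptor. Zfp607b had 32 of 36 sorted insertions at KRAB exon 4 against 7 of 70 in the background. Its main background acceptor, exon 5, lies beyond the KRAB exon and took 48.6% of background and 5.56% of sorted insertions (adjusted p = 9.04e-05, Fisher's exact test). At Zfp60 all 7 sorted insertions were at KRAB exon 3, against 3 of 26 in the background (adjusted p = 0.00733 for its main acceptor, Fisher's exact test). At Zfp59, 4 of 6 sorted and 0 of 30 background insertions were at the KRAB exon (adjusted p = 0.00496, Fisher's exact test). Zfp626, with the identical acceptor, had 6 sorted against 116 background insertions there and was not called.

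Zfp667 differed from these in the reading frame. All 16 of its sorted insertions were at exon 2, followed by a stop codon before the start codon of the annotated transcripts, against 20 of 37 in the background (adjusted p = 0.014, Fisher's exact test). The other 17 background insertions were at exon 5, beyond the KRAB exon 3. With only the repressor screen's own unsorted libraries as background, acceptor use differed at 3 members, Zfp568, Zfp74 and Zfp607b. The same 3 were found without repressor sorted replicate 2, and Zfp59, Zfp60 and Zfp667 did not pass there. In the activator screen 0 of 6 members tested differed (3.17% of genes did), and in the PTGR screen 0 of 23 (0.285% of genes did). At Zfp383 and Zfp566, where the main acceptor already had an open frame, exon 2 took 86.2 and 97.7% of sorted and 89.4 and 98.6% of background insertions, and neither passed the test.

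**Figure D5:**
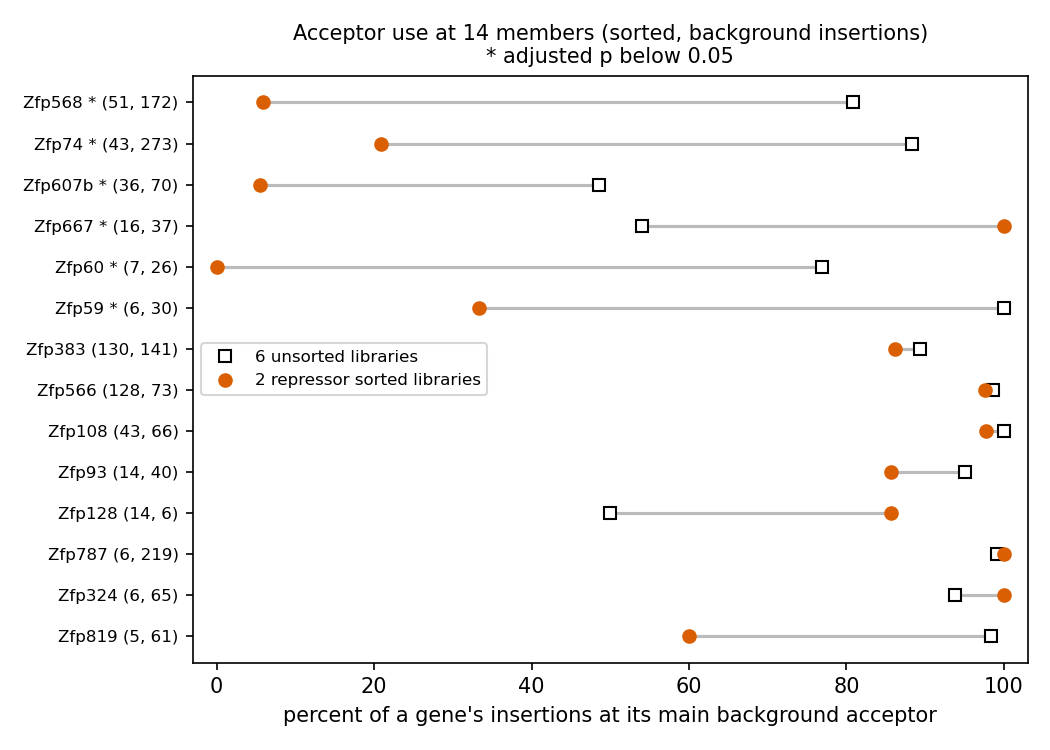
Percent of a gene's insertions at the acceptor used most in the background, in the 6 unsorted libraries (open squares) and the 2 repressor sorted libraries (circles), for the 14 members tested, with sorted and background insertions in brackets. An asterisk marks the 6 members with an adjusted p below 0.05, led by Zfp568, from 80.8 to 5.88%.

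Reversed insertions, counted as if the cassette pointed the other way, called 6 of 16 members tested in the repressor screen, against 5.61% of 2229 genes. The study marked such genes for caution, as either false calls or true ones with a called neighbour on the opposite strand. Zfp260 had 137 reversed sorted insertions and 0 in the sense direction, and 128 of the 137 were the sense insertions of its neighbour Zfp566. All 130 reversed insertions at Zfp27 were sense insertions of Zfp383. Of 57 at Zfp109, 43 were those of Zfp108.

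Zfp568 and Zfp74 were each called in both directions. They lie on opposite strands and point away from each other. All 51 reversed insertions at Zfp74 were the sense insertions of Zfp568, and all 37 at Zfp568 were sense insertions of Zfp74. Zfp329 had 34 reversed insertions, of which 14 were those of Zfp128. At each of these 6 genes the neighbour named was itself called for sense insertions. In the activator screen Zfp628 and Zfp541 were called for reversed insertions (3.14% of 2706 genes were), and 71 of 71 and 38 of 40 of these belonged to Gm36210 and Bicra. In the PTGR screen Zfp94 was called (0.5% of 9204 genes were), and 130 of 134 belonged to Smg9, a nonsense-mediated decay factor.

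No member was called for sense insertions in the activator screen, of 17 tested, where 4.64% of 2842 genes were called (0.647% of all genes). The members do not include Zfp574, which the study reports as an activator. The lowest p was at Zfp575, with 2 and 2 sorted against 25 background insertions, a log2 odds ratio of 2.35 (adjusted p = 0.173, Fisher's exact test; edgeR adjusted p = 0.561). At an unadjusted p below 0.05 there was 1 member by Fisher's exact test and 0 by edgeR. edgeR called 0 of 49 members, against 1.45% of genes (1.25% with the replicate block), and DESeq2 called 0. Of the 12 members called in the repressor screen, 6 had no activator sorted insertion, and none had more than 5.

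The PTGR screen called 0 of 58 members tested, where 0.666% of 9303 genes were called (0.304% of all genes). Zfp606 had 1 and 11 sorted insertions against 26, a log2 odds ratio of 1.98 ± 0.50 (adjusted p = 0.03, Fisher's exact test), nearly all in replicate 2. Without PTGR sorted replicate 1 it was called (log2 odds ratio 2.88), without replicate 2 its log2 odds ratio was -0.63, and edgeR gave an adjusted p of 0.999. At an unadjusted p below 0.05 there were 2 members by Fisher's exact test, Zfp606 and Zfp536, and 0 by edgeR. edgeR called 0 of 51 members, against 0.33% of genes (0.495% with the replicate block), and DESeq2 called 0. The members tested had a median log2 odds ratio of -0.02, and all genes tested 0.14.

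The change between sorted and unsorted cells was also compared between screens in edgeR. It differed between the repressor and the activator screen at 8 of 65 members tested (1.77% of 10767 genes) and between the repressor and the PTGR screen at 8 of 69 (1.66% of 11188 genes). Zfp383, Zfp566, Zfp568, Zfp108, Zfp74, Zfp607b and Zfp667 differed in both, Zfp93 in the first and Zfp975 in the second. Both comparisons share the repressor libraries, and no overlap between them is drawn on. At Zfp128, Zfp936 and Zfp941 the difference did not pass the threshold in either.

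Of the 16 genes listed as parts of the KRAB silencing pathway, 14 appeared with repressor sorted insertions, 13 were tested and 12 were called. Of all genes tested 8.18% were called, and of all genes 0.941%. The study had already named Trim28, HP1 proteins and H3K9 methyltransferases as repressor hits in these data, so the count is a description and no test. In this screen the study also marked Trim28, a known repressor, for reversed insertions. Trim28, which binds the KRAB domain, had 331 and 302 sorted insertions against 676 (log2 odds ratio 4.70 ± 0.08), close to that of Zfp383. Setdb1, its histone methyltransferase, had 19 and 18 against 25 (5.34 ± 0.37), and the HP1 genes Cbx1, Cbx3 and Cbx5 had log2 odds ratios of 4.52, 5.94 and 4.38. Atf7ip, a partner of Setdb1, had 284 and 276 against 766 (4.34 ± 0.08), and Morc3 had 62 and 28 against 183 (3.75 ± 0.19). Smarcad1, a remodeller, had 3.37, the H3K9 methyltransferases Ehmt1 and Ehmt2 4.05 and 5.52, and the remodellers Chd3 and Chd4 5.49 and 4.55. Hdac2 had 3 and 1 against 212 and was not called.

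Numbered Zfp genes elsewhere in the genome gave calls in the repressor screen too. On chromosome 13, 16 of 35 genes were called, on chromosome 17 9 of 44, and on the other chromosomes 19 of 206, beside the 12 of 89 on chromosome 7. The shares were 45.7, 20.5, 9.22 and 13.5%. No test of the difference between chromosomes was made. With Zfp574 and Zfp36 left out, the calls at numbered Zfp genes outside the repressor screen lay on the other chromosomes. There were 2 calls among activators and 1 in the PTGR screen. Zfp574, an activator in the study, is not in these counts.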

How the data were processed

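Insertions were mapped in 12 libraries of 3 screens by inverse PCR and sequencing. Following their methods, the authors trimmed reads with Trim Galore 0.6.0, mapped them to mm10 by Bowtie2 (first mates only), discarded poorly mapped and duplicate reads using SAMtools 1.9, and gave each position to the nearest downstream non-first exon of a protein-coding GENCODE vM25 transcript. They deposited 24 insertion lists (position and distance, sense or reversed), with no number of reads, and 3 tables with counts of insertions per gene. Those tables also hold the authors' log2 odds ratios and p-values, which were not used.

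Each position was counted once per library, since both repressor unsorted lists repeat 100% of their positions. Positions up to 200 kb from the exon entered. Genes were tested with a one-sided Fisher's exact test (scipy 1.17.1) with Benjamini-Hochberg adjustment. edgeR 4.0.16 (quasi-likelihood test; adjusted p below 0.05, log2 fold change of at least 1, at least 10 insertions over 4 libraries) and DESeq2 1.42.0 compared sorted with the screen's own unsorted libraries. SE is on the log2 scale. Depth limits small counts most. The per-gene Fisher test and the acceptor test were first tried on simulated data. The edgeR fit without a block was tried on simulated data too. DESeq2, the blocked fit and the comparison between screens were not.

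Acceptors were placed on GENCODE vM21, and 100% of the 6342 sense insertions at members matched one there. The protein letters came from translated coding sequence of that annotation. KRAB-type letters were searched with a pattern widened after the sequences were seen. The narrower pattern found 41 members, 9 of them called. A zinc finger was C, 2 or 4 residues, C, 12 residues, H, 3 to 5 residues, H. The members, lists and tests were chosen with earlier results of these data known. Genes named are the called members, the uncalled member with the lowest p in each screen, the 5 with most background insertions, the 3 with most reversed insertions, and called genes of the pathway list; others are named as exceptions chosen after their values were seen. Alternatives are given in the closing section.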

Additional observations from a re-analysis of the deposited data

Results flagged for a closer look

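Members whose change differed between screens, by the interaction term of edgeR, had the following adjusted p-values. Against the activator screen these were 5.24e-13 at Zfp566, 4.38e-06 at Zfp383, 0.0001003 at Zfp74, 0.000267 at Zfp108, 0.000501 at Zfp607b, 0.00325 at Zfp667, 0.00592 at Zfp568 and 0.0321 at Zfp93. Against the PTGR screen they were 7.57e-13 at Zfp566, 1.34e-06 at Zfp383, 2.49e-05 at Zfp568, 0.000122 at Zfp108, 0.000402 at Zfp667, 0.000858 at Zfp74, 0.0122 at Zfp607b and 0.0154 at Zfp975.

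Single unsorted libraries stood apart from the other 5 at 4 of the named members. PTGR unsorted replicate 2, the smallest unsorted library, held 0.74 insertions per 10000 at Zfp93 (others 0.337 to 0.399), 1.29 at Zfp787 (others 2.03 to 2.39) and 0.185 at Zfp109 (others 1.13 to 1.4). PTGR unsorted replicate 1 held 3.25 per 10000 at Zfp553 (others 1.85 to 2.31). The values of PTGR unsorted replicate 2 rest on 4, 7 and 1 insertions at Zfp93, Zfp787 and Zfp109. Chance also marks some such groups, at a rate that was not tested. Leaving out either library changed no call in the repressor screen.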

How the results depend on the processing

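The 12 calls of the repressor screen were 9 to 13 when single libraries were left out, 12 with the own-screen background, other minimum counts or positions within 5 bp collapsed, 11 within 50 kb, 13 with every listed line or without positions common to both sorted libraries, 16 at an adjusted p below 0.05, 13 in edgeR with or without TMM, and 15 in DESeq2. With the replicate number as a block, edgeR called 12, the same genes as Fisher's exact test. In the block, and with no block, the activator and PTGR screens gave 0. The numbers give only 2 pairs and the labels do not tie them to a batch. Positions in common give a hint of pairing outside the repressor screen: 19.5% of activator sorted replicate 2 lay in its own-numbered unsorted library and 1.46% in the other, with 4.96 and 2.25% for replicate 1. In the PTGR screen these were 18.2 and 0.342% for replicate 1 and 6.76 and 1.79% for replicate 2, and in the repressor screen 8.17 and 9.86% for replicate 1 and 8.23 and 5.03% for replicate 2. The PTGR screen gave 2 calls at an adjusted p below 0.05 and 0 to 1 when single libraries were left out. Reversed calls in the repressor screen, 6, ranged from 5 to 8. The members' mean share of repressor sorted libraries, 169.3 per 10000, was 213 within 50 kb, 168.4 with positions collapsed and 168.5 without common positions. Members with shifted acceptor use, alternatives chosen after seeing the data, numbered 3 against the own-screen background and 3 to 4 without single sorted libraries, against 6. Of 1048 repeated odds ratios of named members, 1034 kept their side of the threshold, 5 lost it and 9 gained it. Sign changes numbered 69, all at values called in neither fit.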
